A study of Mus musculus with 3 samples.

Results

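The cells described here are absorptive cells of the mouse colon epithelium, colonocytes, in which transcripts of Aqp8, Slc26a3, Clca4a, Clca4b, Muc3 and Krt20 together outnumbered those of Car1 and Fabp2. They were chosen from droplet single-cell RNA sequencing by their own counts. A barcode had to hold at least 300 genes and at most 25% mitochondrial transcripts. At least 2% of its transcripts had to come from the colonocyte genes Slc26a3, Car1, Car4, Aqp8, Krt20, Saa1, Fabp2, Muc3, Lypd8, Clca4a and Clca4b, and under 2% from the goblet cell genes Muc2, Tff3, Clca1, Fcgbp, Zg16, Agr2 and Spink4. Fewer than 5 transcripts of the lymphocyte genes Cd79a, Cd79b, Ms4a1 and Cd3e were allowed. Of 21449 barcodes, 16406 passed the gene and mitochondrial limits, 4196 of these were colonocytes, and in 3787 of those the 6 genes outnumbered Car1 and Fabp2.

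All mice were germ-free before the experiment. One group was then colonized with a mutant of a bacterial strain called BT (BT mutant), one was colonized with the wild type of that strain (BT WT), and one received phosphate-buffered saline and no bacteria (PBS). What BT stands for, which mutation it carried, how long the mice were colonized, their strain, age and sex, and how many animals went into a library are not given by the labels. Each group had 1 library of colon cells, so no difference between groups has a replicate check, no test was run, and the group cannot be told apart from the library.

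Colonocytes take up water, salt and short fatty acids made by bacteria, and they move from the crypt to the surface of the colon wall over a few days, where they are shed. Slc26a3 exchanges chloride for bicarbonate, Aqp8 is a water channel, Muc3 encodes a mucin anchored in the surface membrane, and Krt20 is a keratin of mature gut cells. Car1 encodes a carbonic anhydrase and Fabp2 a carrier of fatty acids in the cell. Contact with bacteria is known to reach these cells through pattern receptors, interferons and bacterial products, and they carry enzymes that bind glutathione to foreign compounds and that oxidize them.

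The name under which the class was proposed, after Aqp8 and Clca4a, went against the counts. Muc3 was the leading gene of the 6 in 742 of 1424 BT mutant cells (52.1%), 530 of 1858 BT WT cells (28.5%) and 167 of 505 PBS cells (33.1%). Slc26a3 led in 390, 743 and 115 cells in the same order of libraries, Aqp8 in 53, 342 and 112, and Clca4a in 45, 16 and 29. Clca4b led in 0 cells and held 5, 4 and 16 unique molecular identifiers (UMIs, 1 per captured transcript) in all members of each library. The class is therefore called Car1-low colonocytes below, and the other 409 colonocytes are called Car1-high. These names compare the classes within a library, and Car1-low does not mean that Car1 was absent. Clca4a and Clca4b are neighbouring copies on chromosome 3 of the mouse genome build GRCm38, at 144952480 to 144975045 and 144910921 to 144932529, and reads that match both cannot be assigned.

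BT mutant held 1424 Car1-low and 296 Car1-high colonocytes, BT WT 1858 and 29, and PBS 505 and 84. The Car1-low share of colonocytes was thus 82.8% in BT mutant (exact binomial 95% interval 80.9% to 84.5%), 98.5% in BT WT (97.8% to 98.97%) and 85.7% in PBS (82.7% to 88.5%). The share was highest in BT WT, and the intervals of BT mutant and PBS overlapped. They did not stay alike under other limits: among colonocytes with at least 10000 transcripts counted the shares were 55.2% in BT mutant, 91.7% in BT WT and 89.02% in PBS, and with a mitochondrial limit of 10% they were 47.6%, 90.6% and 79.5%. Intervals here and below cover counting error only, not differences between mice or preparations. Just inside the limit, where the 6 genes held 0.5 to 0.55 of the counts of the 8 genes, lay 32, 10 and 3 cells, and just outside it, at 0.45 to 0.5, lay 39, 9 and 23. The median counts of the 6 genes and of Car1 plus Fabp2 were 142.5 and 129.5 just inside it in BT mutant, against 71 and 73 just outside it. In PBS these medians were 12 and 10 just inside it and 3 and 3 just outside it. At the far end, 495, 1239 and 132 members held no UMI of Car1 or Fabp2. Their median depths were 3260, 4072 and 925.5 UMIs, with medians of 23, 25 and 5 UMIs of the 6 genes. Many PBS cells were thus placed by few UMIs, and the PBS share is less certain than its interval shows. Among all members 1 barcode occurred in both the BT mutant and the BT WT library, among 19 barcodes that those libraries shared.

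**Figure D1:**
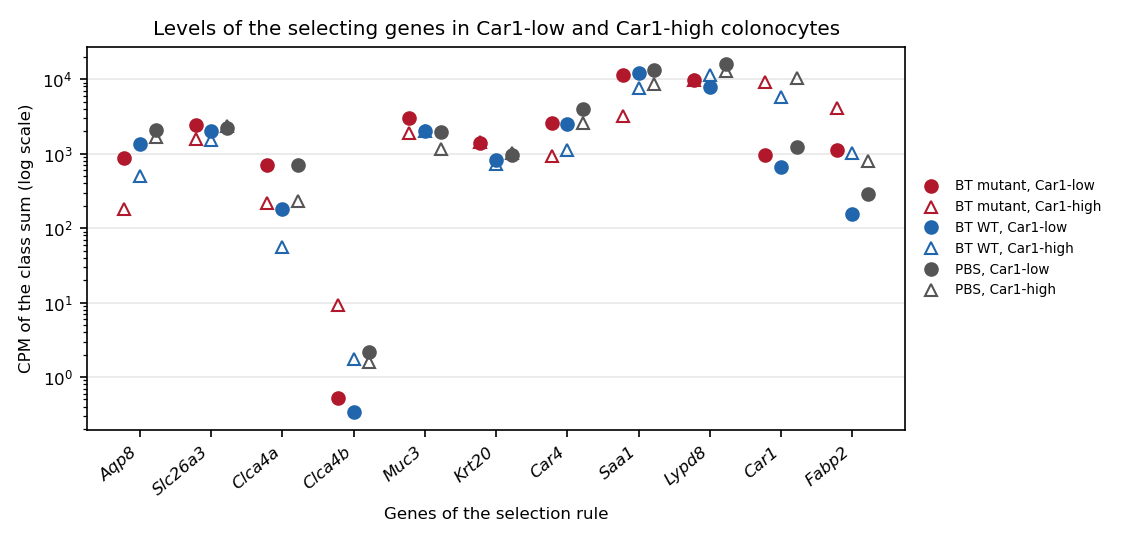
Level of the genes that define colonocytes and of the pair Car1 and Fabp2, in CPM, UMIs per 1000000 of the summed UMIs (log axis), in BT mutant, BT WT and PBS. Filled circles are Car1-low colonocytes and triangles Car1-high colonocytes; Car1 stood at 971, 670.2 and 1216 in the circles and at 9284, 5846 and 10263 in the triangles, a difference that the choice of cells made.

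Members differed in depth between the libraries, and this bears on every comparison below. The median was 3933 UMIs per cell in BT mutant, 4292 in BT WT and 6841 in PBS. The quartiles lay at 2835 and 6402 in BT mutant, 3443 and 5944 in BT WT and 854 and 20849 in PBS, so PBS members fell into a shallow and a deep part. Members under 1000 UMIs made up 3.23%, 1.67% and 30.7% of the cells. Members with at least 10000 UMIs numbered 214, 188 and 219, with medians of 18567.5, 17744 and 24782 UMIs and 16.6%, 17.7% and 17.8% mitochondrial transcripts, and they gave 50.7%, 38.2% and 91.2% of all UMIs of the class. Since depth and mitochondrial share were closer among them, values in these deep members stand beside the results. That limit was chosen after the depths were seen, and the part of depth in the results was not otherwise tested.

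**Figure D2:**
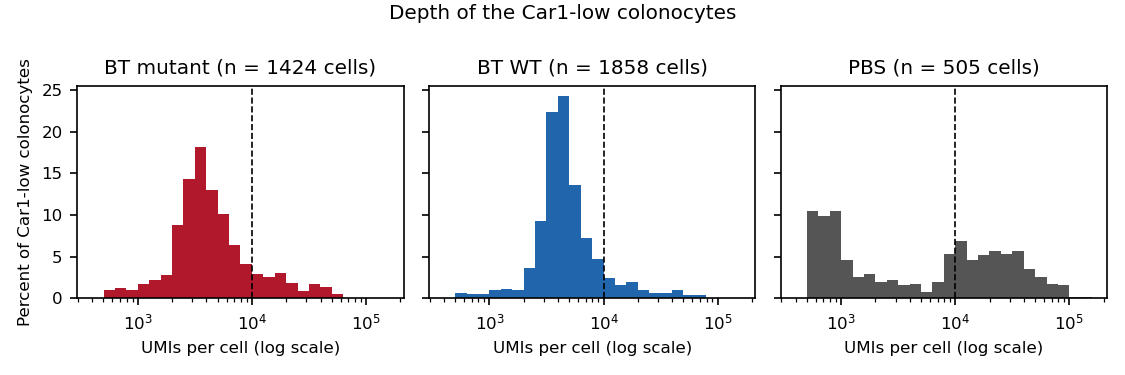
Percent of the Car1-low colonocytes of each library by UMIs per cell (log axis) in BT mutant, BT WT and PBS, with the limit of 10000 UMIs as a dashed line. The BT mutant and BT WT cells form 1 main peak near their medians of 3933 and 4292 UMIs, while the PBS cells lie on both sides of their median of 6841.

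The markers that chose the cells are described first, with no test. Levels are given as CPM, the UMIs of a gene per 1000000 UMIs summed over the class in a library; since 1 end of each transcript is counted, they are not divided by length. Slc26a3 stood at 2435 CPM in BT mutant, 2035 in BT WT and 2193 in PBS. Muc3 stood at 2989, 2016 and 1961 CPM, highest in BT mutant. Aqp8 stood at 867, 1343 and 2069 CPM, lowest in BT mutant and highest in PBS, also among the deep members (918, 1183 and 2142 CPM). Clca4a, of a family named for calcium-dependent chloride secretion, stood at 709, 183 and 711 CPM, and BT WT was the low library. Fabp2 stood at 1130, 153 and 286 CPM, and at 1834, 326 and 297 CPM in the deep members, so BT mutant cells held the most of it even after the limit that the rule sets on it. The 1130 CPM of BT mutant lay above Fabp2 in the Car1-high cells of BT WT (1010) and PBS (789). Car1 stood at 971, 670 and 1216 CPM, and at 1672, 1593 and 1297 CPM in the deep members, above Aqp8 there in BT mutant and BT WT. Krt20 stood at 1399, 822 and 967 CPM, Car4, a carbonic anhydrase of the outer membrane, at 2622, 2495 and 3958, and Lypd8, a surface protein that keeps flagellated bacteria off the epithelium, at 9769, 7916 and 15838. Saa1, a serum amyloid protein, was among the most abundant, with 11378, 12211 and 13261 CPM, and Clca4b stood at 0.518, 0.335 and 2.19 CPM.

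Counts over all genes set the background for what follows. A gene was called when its CPM, with 10 CPM added, differed 2-fold or more between libraries, and 4875 genes with a mean of at least 20 CPM were compared, without the rule's genes and mitochondrial genes. Log2 ratios carry these added 10 CPM, while folds given with an interval are plain ratios of CPM. BT mutant over BT WT had 43 genes higher (0.882%) and 31 lower (0.636%), 1.52% together, with a median log2 ratio of -0.08. BT WT over PBS had 311 higher (6.38%) and 239 lower (4.90%), 11.3% together, with a median of 0.20. BT mutant over PBS had 174 higher (3.57%) and 156 lower (3.20%), 6.77% together, with a median of 0.13. Scaling by the median ratio, which removes these medians, gave 52 higher and 21 lower, 161 and 365, and 112 and 222 in the same order. In the deep members, with 4830 genes, the counts were 37 and 33, 186 and 136, and 124 and 118. The comparisons with PBS share the PBS library and those with BT WT the BT WT library, so they are not independent.

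Promoter sequences from RefSeq (GRCm38.p6; 250 bases before to 50 after each annotated start) are shown for genes of a detoxification group that was lower in both colonized libraries than in PBS and of an interferon group that was higher. Ifit1bl1 and Ddx60 belong to the interferon group, and the capitals mark GAAA, any 2 bases and GAAA again, or the reverse complement, letters of the element that interferon-activated factors bind. The Ifit1bl1 window is chr19:34601919-34602218 on the minus strand and the Ddx60 window chr8:61927837-61928136 on the plus strand.
Ifit1bl1: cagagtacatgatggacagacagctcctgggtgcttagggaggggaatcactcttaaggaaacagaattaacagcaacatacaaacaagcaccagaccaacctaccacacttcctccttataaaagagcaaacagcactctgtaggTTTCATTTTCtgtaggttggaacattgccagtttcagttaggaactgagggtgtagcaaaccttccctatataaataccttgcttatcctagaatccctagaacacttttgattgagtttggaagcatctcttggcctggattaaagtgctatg
Ddx60: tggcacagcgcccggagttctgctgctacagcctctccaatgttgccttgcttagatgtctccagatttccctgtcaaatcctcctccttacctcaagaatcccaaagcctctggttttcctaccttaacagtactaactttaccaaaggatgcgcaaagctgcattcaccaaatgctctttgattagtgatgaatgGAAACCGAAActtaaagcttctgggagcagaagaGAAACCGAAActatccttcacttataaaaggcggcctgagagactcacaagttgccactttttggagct
Gclm and Srxn1 belong to the antioxidant group, and the capitals mark TGACNNNGC or its reverse complement, letters of the element that the factor NRF2 binds. The Gclm window is chr3:122245307-122245606 and the Srxn1 window chr2:152105274-152105573, both on the plus strand.
Gclm: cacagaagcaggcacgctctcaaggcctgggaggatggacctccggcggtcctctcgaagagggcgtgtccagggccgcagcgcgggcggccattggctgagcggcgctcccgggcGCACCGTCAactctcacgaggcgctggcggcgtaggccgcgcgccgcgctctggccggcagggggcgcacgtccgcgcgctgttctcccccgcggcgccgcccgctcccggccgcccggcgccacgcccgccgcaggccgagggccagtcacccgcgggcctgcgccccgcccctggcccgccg
Srxn1: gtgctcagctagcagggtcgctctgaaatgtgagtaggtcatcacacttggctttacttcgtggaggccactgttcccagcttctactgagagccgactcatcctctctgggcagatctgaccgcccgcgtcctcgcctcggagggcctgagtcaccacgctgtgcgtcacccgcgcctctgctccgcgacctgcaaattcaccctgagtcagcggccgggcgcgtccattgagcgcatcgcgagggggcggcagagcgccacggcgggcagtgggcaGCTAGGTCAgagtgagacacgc
Both motifs were searched on both strands. The GAAA pair was found in 1131 of all 32851 windows (3.44%) and in windows of 4 of the 8 interferon list genes that had one, namely Ddx60, Ifih1, Ifit1bl1 and Oas1g. TGACNNNGC was found in 4071 windows (12.4%) and in 11 of the 33 glutathione, antioxidant and sulfide list genes that had one. A gene was counted when any of its windows held the letters, a match is a description and not a binding site, and no inference is drawn from the windows without one.

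Genes of glutathione conjugation were far lower in both colonized libraries than in PBS. Gsta1, an enzyme that joins glutathione to electrophiles and the gene with the largest log2 ratio in both comparisons with PBS, stood at 8.50 CPM in BT mutant (82 UMIs), 3.52 CPM in BT WT (42 UMIs) and 1000.5 CPM in PBS (7316 UMIs). It was 285-fold lower in BT WT than in PBS (95% interval 210.3 to 395) and 118-fold lower in BT mutant than in PBS (94.7 to 148). Its near copy Gm3776 held 3, 0 and 2104 UMIs, and Gsta2 held 0, 0 and 463. Gm3776 was 925-fold lower in BT mutant than in PBS (316 to 4490) and, at a floor of 3 UMIs in the BT WT sum, at least 1146-fold lower in BT WT. Gsta2 was at least 204-fold lower in BT mutant and at least 252-fold lower in BT WT. The 3 genes lie together on chromosome 9 of GRCm38, at 78230656 to 78242684, 78257129 to 78269166 and 78331018 to 78355788, and reads can be split between such copies, so their separate values are uncertain.

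Of 10 glutathione transferases compared, 0 were higher and 7 lower in BT mutant than in PBS, with a median log2 ratio of -1.28 against 0.13 over all genes. In BT WT over PBS 0 were higher and 8 lower, with a median of -1.56 against 0.20. Gsto1, an omega-class member, stood at 478 CPM in BT mutant, 402 in BT WT and 1673 in PBS. Mgst3, a membrane-bound member, stood at 1169.99, 522 and 1712 CPM, and it was the single member called between the colonized libraries, 2.24-fold higher in BT mutant than in BT WT (2.17 to 2.31). Among the deep members the list medians were -1.13 and -1.17 in BT mutant and BT WT over PBS, with 6 genes lower in each. Mgst3 stood at 1795, 1035 and 1818 CPM in them, and the difference between the colonized libraries was under 2-fold there.

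Single cells showed the same separation. When the deep members were thinned to 10000 UMIs each, Gsta1 was seen in 8.41% of BT mutant cells, 4.79% of BT WT cells and 91.8% of PBS cells, with a median of 6 UMIs in PBS and 0 in both others. Members were also thinned to 1000 UMIs, which left out 46, 31 and 155 shallower cells. The shares were then 0.508%, 0% (0 of 1827 cells, which allows up to 0.164%) and 34.0%. In lymphocyte droplets thinned alike, chosen by the B cell genes Cd79a, Cd79b and Ms4a1, they were 0.595%, 0.142% and 4.16%. Such droplets should lack the gene and show free RNA. Unthinned, 4.14%, 1.45% and 59.2% of members had a UMI, against 1.93%, 0.423% and 12.5% of lymphocyte droplets, at median depths of 3933, 4292 and 6841 UMIs in members and 2831, 2934 and 3582 in the droplets. The thinned shares in BT mutant and BT WT members were at or under that background, and the PBS share was above it.

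Genes of the NRF2 antioxidant response were lower as well. Of 16 compared, 0 were higher and 11 lower in BT mutant than in PBS (median log2 ratio -1.24), and 0 were higher and 12 lower in BT WT than in PBS (-1.45). Fth1, the heavy chain of the iron store ferritin, stood at 4681 CPM in BT mutant, 2858 in BT WT and 12166 in PBS. Hmox1, which degrades heme, stood at 2.70, 4.44 and 92.2 CPM, and was 34.2-fold lower in BT mutant (23.1 to 52.7) and 20.8-fold lower in BT WT (15.7 to 28.0) than in PBS. Cat, the enzyme catalase, stood at 24.5, 18.5 and 202 CPM, and Prdx1, a peroxiredoxin, at 208, 183 and 898. PBS was the high library for each of these genes. Nfe2l2, which encodes NRF2 itself, stood at 125, 109 and 104 CPM and Keap1, its inhibitor, at 56.3, 68.4 and 43.6, and neither reached 2-fold in any comparison.

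The enzymes that make glutathione followed. Gclc, the catalytic subunit of the first enzyme, stood at 94.96 CPM in BT mutant, 68.0 in BT WT and 1124 in PBS, 11.8-fold lower in BT mutant (11.05 to 12.7) and 16.5-fold lower in BT WT (15.4 to 17.8) than in PBS. Gclm, its regulatory subunit, stood at 79.5, 73.9 and 487 CPM. Members with at least 10000 UMIs held similar levels, and Gclc stood at 111, 87.4 and 1157 CPM in them. The antioxidant list had medians of -0.91 and -1.08 in the deep members, with 7 and 9 genes lower in BT mutant and BT WT than in PBS.

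Among 28 genes of foreign compound metabolism, 2 were higher and 13 lower in BT mutant than in PBS (median log2 ratio -0.91), and 2 were higher and 16 lower in BT WT than in PBS (-1.32). Cbr3, a carbonyl reductase, stood at 17.9 CPM in BT mutant, 16.7 in BT WT and 693 in PBS. Ces1g, a carboxylesterase, stood at 3.63, 1.34 and 187 CPM, and Nqo1, a quinone reductase, at 4.87, 2.595 and 112. Both colonized libraries were far below PBS for these 3 genes, and Cbr3 was 38.6-fold lower in BT mutant (33.2 to 45.2) and 41.4-fold lower in BT WT (35.9 to 47.9) than in PBS. Aldh1a1, which oxidizes aldehydes and makes retinoic acid, took a middle value in BT mutant, with 352, 98.6 and 1245 CPM. It was 3.57-fold higher in BT mutant than in BT WT (3.34 to 3.81), and in the deep members its median was 4.5, 1 and 11 UMIs after thinning. Cyp4b1, a cytochrome P450, had the same order of libraries, with 47.9, 5.53 and 193 CPM.

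The members that were higher belonged to the Cyp2d group of cytochromes P450. Cyp2d12 stood at 259 CPM in BT mutant, 399 in BT WT and 66.7 in PBS, and Cyp2d34 at 755, 714 and 334. Reads can be split within the Cyp2c and Cyp2d groups, so their single values are uncertain. Cyp2d12 depended on depth: in the deep members it stood at 102, 213 and 65.8 CPM, with a log2 ratio of 0.57 instead of 1.81 in BT mutant over PBS. Cyp2d34 stood at 589, 569 and 332 CPM there, with log2 ratios of 0.81 and 0.76 in BT mutant and BT WT over PBS, so neither gene passed 2-fold in BT mutant over PBS among the deep members.

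**Figure D3:**
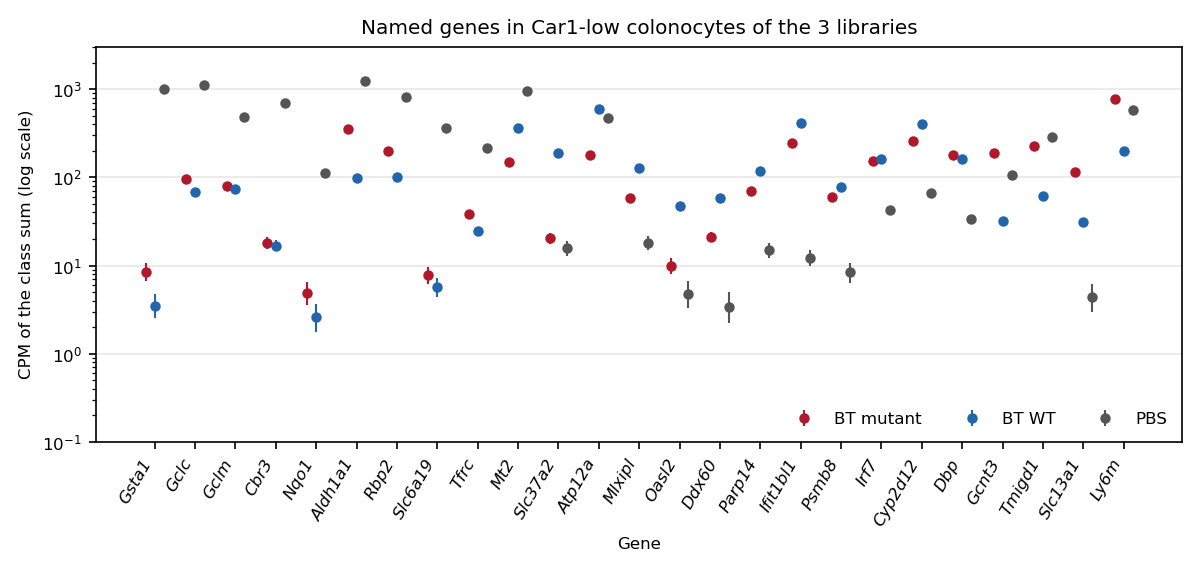
Level of named genes in Car1-low colonocytes, in CPM (log axis), with exact Poisson 95% intervals of the sums as bars, in BT mutant, BT WT and PBS. Gsta1, Cbr3, Gclc and Slc6a19 lie highest in PBS, Ifit1bl1 and Ddx60 lie higher in both colonized libraries than in PBS, and Slc37a2 stands apart in BT WT at 188 CPM.

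Nutrient transport and metabolism genes gave some of the largest single differences. Slc6a19, a transporter of neutral amino acids, stood at 7.78 CPM in BT mutant, 5.69 in BT WT and 363 in PBS, 46.8-fold lower in BT mutant (37.2 to 59.6) and 63.8-fold lower in BT WT (50.2 to 82.5) than in PBS. PBS was the high library. In the amino acid list, 1 of 8 genes was higher and 3 lower in BT mutant than in PBS, and 1 was higher and 4 lower in BT WT than in PBS. The shares over all genes were 3.57% and 3.20% in BT mutant over PBS and 6.38% and 4.90% in BT WT over PBS. Slc3a1, which pairs with a cystine transporter, stood at 93.7, 24.95 and 137 CPM, lowest in BT WT. Slc15a1, the peptide transporter, stood at 306, 309 and 272 CPM and differed by less than 2-fold in each comparison.

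Apoc2, an apolipoprotein, stood at 31.6 CPM in BT mutant, 11.3 in BT WT and 509 in PBS. Rbp2, a carrier of vitamin A alcohol, stood at 197, 99.5 and 814 CPM. Both were lowest in BT WT and highest in PBS, with log2 ratios of -3.64 for Apoc2 and -1.99 for Rbp2 in BT mutant over PBS. Mlxipl, the sugar-responsive factor ChREBP, was higher in the colonized libraries, with 58.1, 127 and 18.1 CPM, but in the deep members it stood at 23.7, 46.4 and 17.8. The gene 2010106E10Rik, for which no role is given, stood at 2.38, 4.52 and 183 CPM.

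Of 17 cholesterol synthesis and sterol uptake genes, 0 were higher and 7 lower in BT mutant than in PBS (median log2 ratio -0.92), and 0 were higher and 10 lower in BT WT than in PBS (-1.06). Cyp51, which removes a methyl group from lanosterol, stood at 29.0, 20.4 and 97.8 CPM in BT mutant, BT WT and PBS. Insig1, which holds back sterol synthesis, stood at 63.96, 94.02 and 172 CPM. Among the deep members 4 genes were lower in each of the comparisons with PBS, with medians of -0.63 and -0.61.

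Part of the metal genes were lower in the colonized libraries, with the lower list median in BT mutant. Of 8 compared, 0 were higher and 5 lower in BT mutant than in PBS (median log2 ratio -1.71), and 0 were higher and 4 lower in BT WT than in PBS (-0.98). The list holds 16 genes, and over every gene with a UMI these medians were -0.23 and -0.07. Slc11a2, which imports iron, stood at 15.7 CPM in BT mutant, 46.5 in BT WT and 115 in PBS. Slc40a1, the iron exporter ferroportin, stood at 161, 351 and 655 CPM, and Mt2, a metallothionein that binds zinc, at 151, 366 and 955. Each of these 3 was at least 2-fold lower in BT mutant than in BT WT, with log2 ratios of -1.14, -1.08 and -1.23. With a mitochondrial limit of 10%, the Mt2 log2 ratio between the colonized libraries was 0.18. Tfrc, the transferrin receptor, stood at 37.9, 24.5 and 214 CPM, lowest in BT WT, and Mt1, the most abundant of the list, at 1907, 2499 and 5296. In the deep members 5 and 2 genes of the list were lower in BT mutant and BT WT than in PBS, with medians of -1.04 and -0.56, and the BT WT over PBS log2 ratios of Mt1 and Mt2 were -0.61 and -0.76.

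Genes of sulfide and thiol metabolism, some of which clear hydrogen sulfide made by bacteria, were lower in part. Of 13 compared, 0 were higher and 5 lower in BT mutant than in PBS (median log2 ratio -0.72), and 0 were higher and 6 lower in BT WT than in PBS (-0.86). Selenbp1, an oxidase of methanethiol, stood at 1579.7 CPM in BT mutant, 1184 in BT WT and 3972 in PBS. Ethe1, a mitochondrial persulfide dioxygenase, stood at 1176, 588 and 821 CPM, and Txn1, thioredoxin, at 3797, 1809 and 3282. For both of these BT WT was the low library over all members, and Txn1 was 2.099-fold higher in BT mutant than in BT WT (2.06 to 2.13). In the deep members Txn1 stood at 4941, 2757 and 3454 CPM, under 2-fold between the colonized libraries, and Ethe1 at 1739.6, 1104 and 864 CPM, lowest in PBS. There 1 gene of the list was higher and 5 lower in BT mutant than in PBS, and 0 were higher and 4 lower in BT WT than in PBS.

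Interferon-stimulated genes were higher in both colonized libraries than in PBS. Ifit1bl1, a member of the antiviral Ifit family, stood at 244 CPM in BT mutant (2351 UMIs), 416 in BT WT (4971 UMIs) and 12.2 in PBS (89 UMIs). It was 20.02-fold higher in BT mutant than in PBS (16.2 to 25.03) and 34.2-fold higher in BT WT than in PBS (27.7 to 42.7). Ddx60, a helicase of antiviral sensing, stood at 21.0, 57.9 and 3.42 CPM, and Parp14, an ADP-ribosyltransferase, at 70.6, 116 and 14.9. Irf7 and Irf1, factors that drive interferon genes, stood at 153, 161 and 42.4 CPM and at 157, 184 and 43.8 CPM. PBS was the low library for all of these genes, and BT WT the highest.

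Of 11 interferon list genes compared, 7 were higher and 0 lower in BT mutant than in PBS, with a median log2 ratio of 1.03 against 0.13 over all genes. In BT WT over PBS 8 were higher and 0 lower, with a median of 1.70 against 0.20. The list holds 39 genes, and over every gene with a UMI its medians were 0.22 and 0.68 in BT mutant and BT WT over PBS. Between the colonized libraries 0 were higher and 2 lower in BT mutant, namely Ddx60, 2.75-fold (2.35 to 3.24), and Oasl2, an enzyme-like antiviral protein, 4.84-fold (3.89 to 6.08), with 9.85, 47.6 and 4.79 CPM. Both genes reached the mean of 20 CPM only through their BT WT level, so these 2 calls lean on the filter. The richest single cell gave 37.1% of the Oasl2 UMIs in PBS. In the deep members, where 9 genes reached the mean of 20 CPM, the list medians were 0.75 and 0.97 in BT mutant and BT WT over PBS, with 4 genes higher in each. Ddx60 stood at 10.02, 39.2 and 3.30 CPM in them, and its log2 ratio in BT mutant over PBS was 0.59.

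Ifit1bl1 UMIs came from many cells. In members thinned to 1000 UMIs it was seen in 24.2% of BT mutant, 35.4% of BT WT and 2% of PBS cells, against 1.19%, 2.91% and 0.594% of lymphocyte droplets. Unthinned, the shares were 56.6%, 72.1% and 6.73% of members and 5.38%, 8.03% and 1.09% of lymphocyte droplets, at the median depths given above. Both colonized libraries stood above this background. Among deep members Ifit1bl1 stood at 137, 207 and 9.44 CPM, lower than over all members, with the same order of libraries.

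**Figure D4:**
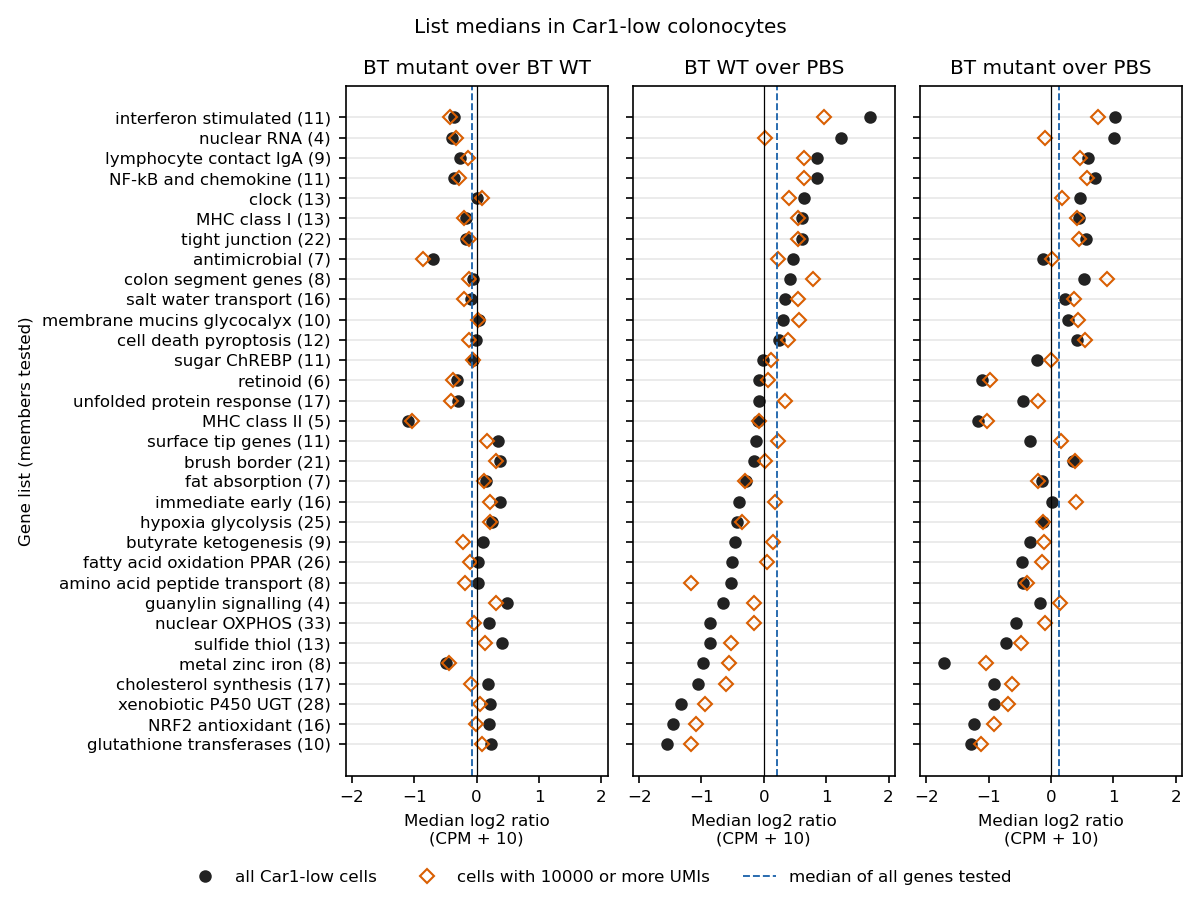
Median log2 ratio of each gene list in Car1-low colonocytes for BT mutant over BT WT, BT WT over PBS and BT mutant over PBS. Filled points use all members, open diamonds those with at least 10000 UMIs, and the dashed line is the median over all genes compared (-0.08, 0.20 and 0.13). Glutathione transferases (-1.56 in BT WT over PBS) and interferon-stimulated genes (1.70) lie at the ends, and the diamonds of the oxidative phosphorylation list lie near 0.

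Immunoproteasome genes were higher in the colonized libraries, while H2-K1, a class I heavy chain, was lower. Psmb8 and Psmb10, which replace subunits of the proteasome under interferon, stood at 59.8, 78.3 and 8.34 CPM and at 159, 166 and 37.3 CPM in BT mutant, BT WT and PBS. H2-K1, which presents peptides, stood at 1686, 2020.03 and 3363 CPM, lower in both colonized libraries, 1.99-fold in BT mutant (1.96 to 2.03) and 1.66-fold in BT WT (1.64 to 1.69). In the deep members it stood at 1177, 1368 and 3149 CPM, with log2 ratios of -1.41 and -1.20 in BT mutant and BT WT over PBS. Of 13 class I genes compared, 2 were higher and 0 lower in each comparison with PBS, with medians of 0.45 and 0.62 in BT mutant and BT WT over PBS. The shares of all genes that were higher were 3.57% and 6.38%. Among the deep members 3 were higher and 1 lower in each, and the sign of the median was not stable, with -0.12 in BT mutant over PBS from 2000 to under 10000 UMIs and -0.25 in BT WT over PBS over genes of at least 50 CPM. Lymphocyte droplets held more Psmb8 than the members did: at 1000 UMIs it was seen in 5.66%, 6.08% and 1.71% of members and in 29.7%, 24.7% and 16.2% of lymphocyte droplets. The part of such droplets in the Psmb8 values was not tested.

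Some class II genes were lower in BT mutant than in both other libraries, and the list summed to less than in the barcodes that are not colonocytes. The list summed to 888 CPM in BT mutant, 899 in BT WT and 1069 in PBS members, against 3829, 4233 and 4171 CPM in those barcodes. Cd74, the invariant chain, stood at 23.7 CPM in BT mutant, 68.6 in BT WT and 65.9 in PBS, and H2-Ab1 at 10.9, 36.6 and 36.2. Of 5 class II genes compared, 0 were higher and 3 lower in BT mutant than in BT WT (median log2 ratio -1.10), and 0 were higher and 4 lower in BT mutant than in PBS (-1.17). Over genes of at least 50 CPM the median in BT mutant over BT WT was -0.05, while in BT mutant over PBS it was -0.79 or lower in every alternative. Ctss, the most abundant of the list, held 7601, 8354 and 5716 of 9646237, 11943858 and 7312353 UMIs. Its level was thus not lowest in BT mutant. At 1000 UMIs Cd74 was seen in 2.47%, 5.31% and 9.14% of members and in 99.7%, 99.4% and 98.8% of lymphocyte droplets, and 1 cell gave 26.3% of the Cd74 UMIs in PBS. All 11 B cell markers summed to 16.3 CPM in BT mutant, 11.6 in BT WT and 37.7 in PBS. The part of these droplets in the class II result was not tested.

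NF-kB genes were higher to a smaller extent. Of 11 compared, 3 were higher and 0 lower in BT mutant than in PBS (median log2 ratio 0.71), and 4 were higher and 0 lower in BT WT than in PBS (0.85). Nfkbia, an inhibitor of the pathway that is also its target, stood at 380 CPM in BT mutant, 322 in BT WT and 174 in PBS. Tnfaip3, the deubiquitinase A20, stood at 81.7, 124 and 35.3 CPM, and Tnip3, a partner of A20, at 20.7, 37.5 and 5.74. Nfkbiz, another member of the inhibitor family, stood at 90.4, 80.6 and 33.9 CPM. Among the deep members 2 genes were higher in each comparison with PBS, and Nfkbia stood at 531, 499.9 and 173 CPM. With a mitochondrial limit of 10% the Tnfaip3 log2 ratio in BT mutant over PBS was -0.22.

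Among 7 antimicrobial genes no common direction was seen, with 1 higher and 2 lower in BT mutant than in PBS and 3 higher and 1 lower in BT WT than in PBS. Duox2, an oxidase that releases hydrogen peroxide, stood at 63.5 CPM in BT mutant, 62.3 in BT WT and 11.1 in PBS. Among the deep members it stood at 16.6, 18.4 and 10.2 CPM, with log2 ratios of 0.40 and 0.49 over PBS, so the 2-fold difference was not seen there. Pigr, which carries antibody into the gut lumen, stood at 663, 1024 and 735 CPM, highest in BT WT. Saa2, close in sequence to Saa1, stood at 61.8, 135 and 146 CPM, so reads may be shared. Wfdc2, a protease inhibitor, stood at 23.9, 52.5 and 183 CPM. Nlrp6, a sensor that regulates mucus and inflammasomes, stood at 142, 244 and 87.9 CPM, and Gsdmd, which forms pores in the membrane in inflammatory cell death, at 92.1, 161 and 32.3. For these last 2 genes BT WT was highest and PBS lowest.

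Cell junction genes gave few calls in BT mutant over PBS and more in BT WT over PBS. Of 22 compared, 1 was higher and 0 lower in BT mutant than in PBS (median log2 ratio 0.55), where 3.57% of all genes were higher. In BT WT over PBS 5 were higher and 0 lower (0.62), where 6.38% of all genes were higher. Tjp1, a scaffold of tight junctions, stood at 202 CPM in BT mutant, 243 in BT WT and 90.8 in PBS. Cldn7, the most abundant of the list by UMIs, stood at 2662, 2433 and 2270 CPM. The deep members gave medians of 0.44 and 0.55 in BT mutant and BT WT over PBS, with 1 and 2 genes higher, and Tjp1 stood at 145, 155 and 86.6 CPM in them, under 2-fold. Cgn, cingulin, stood at 227, 333 and 139 CPM.

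Salt and water transport and guanylin genes differed singly. Of 16 transport genes, 1 was higher and 1 lower in BT mutant than in PBS, and 3 were higher and 1 lower in BT WT than in PBS. The shares over all genes were 3.57% and 3.20% in BT mutant over PBS and 6.38% and 4.90% in BT WT over PBS. Atp12a, the colonic proton and potassium pump, stood at 179 CPM in BT mutant, 602 in BT WT and 471 in PBS, 3.35-fold lower in BT mutant than in BT WT (3.18 to 3.54). In Car1-high cells Atp12a stood at 6.27, 554 and 684 CPM. Sgk1, a kinase induced by aldosterone, stood at 534, 336 and 952 CPM, lowest in BT WT and highest in PBS. Guca2a, the peptide guanylin that controls salt and water secretion, stood at 4336, 2490 and 5567 CPM, 2.24-fold lower in BT WT than in PBS (2.20 to 2.27), and its receptor Gucy2c at 122, 108 and 121 CPM. Guca2b, uroguanylin, stood at 35.1, 12.2 and 84.4 CPM. Guca2a stood at 6122, 4714 and 5672 CPM in the deep members, so its 2-fold difference was not seen there.

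Clock genes were measured once in each library, and the hours of sampling are not in the labels. Dbp, a clock output factor, stood at 177 CPM in BT mutant, 162 in BT WT and 33.4 in PBS, 5.30-fold higher in BT mutant (4.63 to 6.09) and 4.85-fold higher in BT WT (4.24 to 5.56) than in PBS. Nr1d1, a repressor of the clock, stood at 134, 237 and 143 CPM, and Bhlhe40, another repressor, at 145, 252 and 167. Of 13 clock genes, 2 were higher and 0 lower in each comparison with PBS, where 3.57% (BT mutant) and 6.38% (BT WT) of all genes were higher. Among the deep members 1 was higher in each and 1 lower in BT WT, with Dbp at 166, 150.2 and 33.6 CPM.

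Fewer genes separated the colonized libraries. Among genes that reached 50 CPM and lay at least as high as in the other barcodes of the library, the largest ratio in BT mutant was that of Gcnt3, an enzyme that branches mucin sugars, with 190.02 CPM in BT mutant and 32.0 in BT WT, 5.94-fold (5.32 to 6.65), and 107 in PBS. Mal, a protein of sorting to the apical membrane, stood at 109 CPM in BT mutant, 20.3 in BT WT and 30.2 in PBS, and Ly6m, of the Ly6 family, at 778, 201 and 578. Lgals3, galectin 3, which binds surface sugars, stood at 4904, 1823 and 4186 CPM, 2.69-fold higher in BT mutant than in BT WT (2.65 to 2.73). For Gcnt3, Ly6m and Lgals3 BT WT was the low library while BT mutant and PBS were within 2-fold of each other. Mal was highest in BT mutant, with a log2 ratio of 1.56 over PBS. Dcn, a fibroblast gene that this condition leaves out, had a log2 ratio of 2.51 in BT mutant over BT WT, and 1 cell gave 39.1% of its UMIs in BT mutant.

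Slc13a1, a sulfate transporter, was highest in BT mutant and lowest in PBS, with 113 CPM in BT mutant, 31.1 in BT WT and 4.38 in PBS. It was 3.65-fold higher in BT mutant than in BT WT (3.24 to 4.12) and 25.9-fold higher in BT mutant than in PBS (18.2 to 38.1). Ncoa7, Tmigd1 and Cyp2c65 were the other genes among the 8 with the largest ratios, with log2 ratios of 1.74, 1.74 and 1.62 in BT mutant over BT WT. Ncoa7 stood at 157, 39.9 and 62.2 CPM and Cyp2c65, a cytochrome P450, at 84.3, 20.8 and 97.2. Tmigd1, an adhesion molecule of the brush border, stood at 227, 61.1 and 283 CPM. The brush border list as a whole had 2 of 21 genes higher and 0 lower in BT mutant than in BT WT (median log2 ratio 0.38), where 0.882% of all genes were higher.

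Slc37a2, a sugar phosphate exchanger, was high in BT WT and low in both other libraries, with 20.5 CPM in BT mutant, 188 in BT WT and 15.7 in PBS. It was 9.15-fold lower in BT mutant than in BT WT (7.91 to 10.6) and 11.9-fold higher in BT WT than in PBS (9.90 to 14.5). In deep members thinned to 10000 UMIs it was seen in 16.8%, 71.3% and 7.76% of cells. At 1000 UMIs the shares in BT mutant and BT WT members were 1.45% and 12.4%, against 0.68% and 2.13% of lymphocyte droplets. Tle4, a corepressor, stood at 91.5, 241 and 83.6 CPM, also highest in BT WT. Il18, a cytokine of the epithelium, stood at 23.01, 73.3 and 38.4 CPM, and Rnf213, an interferon-induced ubiquitin ligase, at 18.5, 56.7 and 6.29. Snhg20 and Nme7 completed the 8 with Atp12a and Mt2, at 15.3, 56.2 and 15.0 CPM and at 20.9, 63.0 and 104 CPM.

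Several genes were higher in both colonized libraries than in PBS. Dio1, which activates thyroid hormone, stood at 105 CPM in BT mutant, 98.3 in BT WT and 12.3 in PBS. Igsf9, an adhesion protein, stood at 176, 159 and 33.1 CPM, Spats2l at 77.1, 75.02 and 8.75, and Ppm1j, a phosphatase, at 84.5, 75.6 and 9.57. Muc3a, unlike these, also differed between the colonized libraries, with 171, 84.9 and 30.2 CPM. It is a short annotated copy next to Muc3 on chromosome 5, at 137208813 to 137212389, so its reads may be shared with Muc3. Ahnak2 stood at 144, 119 and 21.3 CPM over all members but at 39.1, 42.9 and 19.5 in the deep ones.

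Depth moved with the genes of respiration and with nuclear RNA. Cox6a1, a subunit of cytochrome oxidase, stood at 574 CPM in BT mutant, 557 in BT WT and 1948 in PBS. The 33 nuclear genes of oxidative phosphorylation summed to 19414 CPM in BT mutant, 15304 in BT WT and 29757 in PBS, and 0 were higher and 9 lower in BT WT than in PBS (median log2 ratio -0.86). Among members with at least 10000 UMIs the sums were 28508, 27176 and 31118 CPM, with 0 lower in BT WT than in PBS and a median of -0.15. The nuclear RNA list holds Neat1, Malat1 and other transcripts, among them Gm42418, which lies over a ribosomal RNA locus. Its medians were 1.015 and 1.24 in BT mutant and BT WT over PBS but -0.09 and 0.02 among the deep members. Of 4 genes compared, 2 and 3 were higher and 0 lower over all members. Gm42418 had the largest ratio over PBS, while Malat1, at 49526, 67852 and 69029 CPM, was not higher than in PBS. The medians of both lists thus lay near 0 among the deep members, but single genes did not: there Cox6a1 stood at 883, 1027 and 2025 CPM and Malat1 at 27155, 39198 and 65847 CPM, each over 2-fold lower in BT mutant than in PBS.

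**Figure D5:**
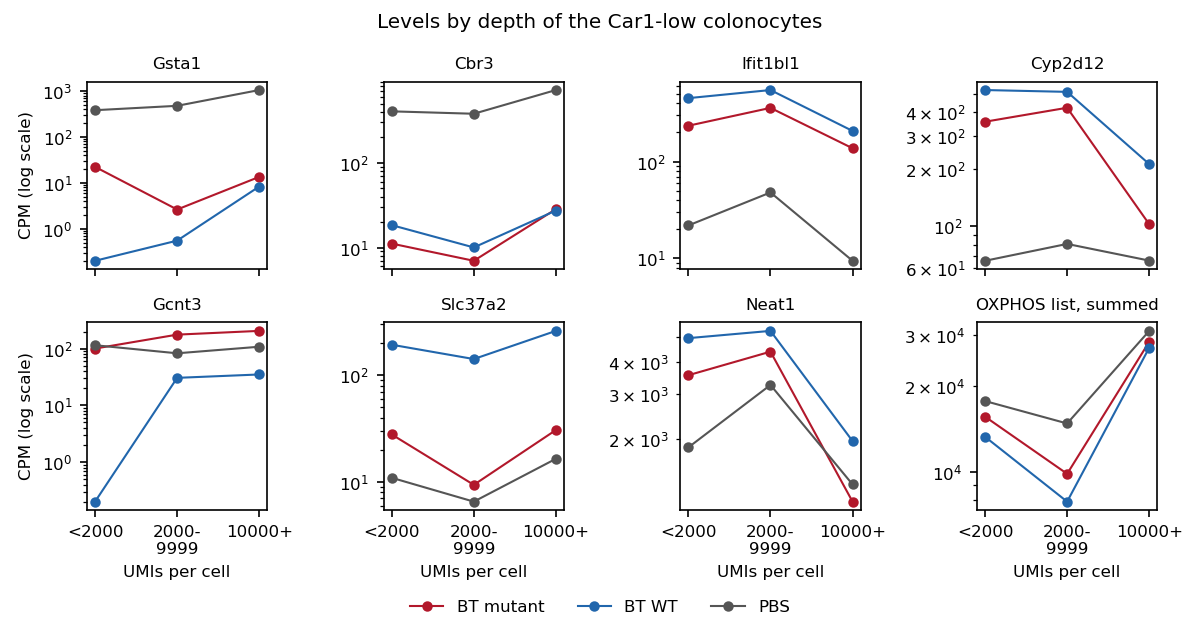
Level, in CPM (log axis), of 7 genes and of the summed oxidative phosphorylation list in Car1-low colonocytes with under 2000, from 2000 to under 10000 and at least 10000 UMIs, in BT mutant, BT WT and PBS; a level of 0 is drawn at 0.2 CPM. Gsta1 in PBS stands at 383, 477 and 1053 CPM with rising depth and far above both other libraries in each stratum, whereas the oxidative phosphorylation sums of the 3 libraries come together at 28508, 27176 and 31118 CPM in the deepest.

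Against Car1-high colonocytes of the same library, the Car1-low cells are described without a test, since the rule split the cells by their counts. In BT mutant 203 of 4899 genes were higher (4.14%) and 274 lower (5.59%), in BT WT 284 (5.80%) and 393 (8.02%), and in PBS 50 (1.02%) and 17 (0.347%). In all 3 libraries 26 were higher (0.531%) and 10 lower (0.204%). BT WT had 29 Car1-high cells, and its values are the least certain. Lama3, a laminin chain of the basement membrane, stood at 156, 313 and 92.4 CPM in Car1-low cells of BT mutant, BT WT and PBS, against 14.4, 33.7 and 12.6 in Car1-high cells. Neat1, a nuclear RNA, stood at 2732, 4022 and 1467 CPM in Car1-low cells, against 486, 585 and 677 in Car1-high cells. Fbxo32, a ubiquitin ligase subunit, stood at 228, 269 and 64.3 CPM, against 35.4, 37.2 and 20.5. Ifit1bl1 stood at 244, 416 and 12.2 CPM, against 15.3, 42.5 and 2.37. Apol7a, 5430427M07Rik, Gm15998 and Bglap3 completed the 8 genes with the largest mean ratio, at 31.2 to 168 CPM in Car1-low cells and 0 to 35.96 CPM in Car1-high cells.

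Lower in Car1-low cells were Atpif1, an inhibitor of ATP synthase, with 214, 169 and 499.7 CPM, against 957, 625 and 1018 in Car1-high cells, and Atp5g1, a subunit of that enzyme, with 298, 254 and 535 CPM, against 953, 797 and 908. Phlda1 stood at 78.0, 119 and 52.7 CPM, against 177, 501 and 202. Tstd1, a sulfur transferase, stood at 204, 125 and 342 CPM, against 714, 537 and 516. Scin, Mgat4c and Sptssb were also lower in Car1-low cells of all 3 libraries. Of the 33 oxidative phosphorylation genes, 19, 23 and 1 were lower in the Car1-low cells of BT mutant, BT WT and PBS. Depth and mitochondrial share moved with this split: the median depth was 3933, 4292 and 6841 UMIs in Car1-low cells, against 16340, 13268 and 1104.5 in Car1-high cells, and the median mitochondrial share was 18.2%, 18.2% and 14.0%, against 9.79%, 12.2% and 10.02%. In BT mutant the counts differed by depth, with 48 higher and 48 lower among cells with at least 10000 UMIs and 862 and 848 from 2000 to under 10000. These contrasts held 174 and 51 Car1-high cells, and the part of sampling error in the counts was not tested. Gsta1 stood at 8.50, 3.52 and 1000.5 CPM in Car1-low cells, against 98.1, 31.9 and 1426 in Car1-high cells, so PBS was the high library in both classes.

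Summed over all members, markers of other cell types were low but differed between the libraries. Fat cell markers (9 genes) summed to 31.5 CPM in BT mutant, 15.3 in BT WT and 226 in PBS, with 5, 1 and 0 of them at 0, and to 402, 335 and 5860 CPM in the barcodes of each library that are not colonocytes. Fibroblast markers (10 genes) summed to 134, 13.4 and 70.2 CPM, where 1 cell gave 39.1%, 2.94% and 29.1% of the Dcn UMIs. T cell markers (13 genes) summed to 5.08, 3.35 and 32.7 CPM, macrophage markers (9 genes) to 18.6, 19.4 and 67.7, goblet cell markers (14 genes) to 37.8, 66.7 and 40.5, and enteroendocrine markers (8 genes) to 31.3, 4.10 and 141. Crypt stem cell markers (10 genes) summed to 43.1, 63.5 and 35.4 CPM, crypt secretory markers (6 genes) to 79.4, 115 and 69.3, tuft cell markers (8 genes) to 9.95, 17.3 and 11.6, and red blood cell markers (5 genes) to 28.8, 53.5 and 1.92, each highest in BT WT. A single cell gave 82.7%, 12.5% and 65.3% of the UMIs of the enteroendocrine gene Chgb. These sums are weighted to deep cells, and the shallow PBS members were not low. In the 207 PBS members under 2000 UMIs fat cell markers stood at 2353 CPM, above Aqp8 at 1439, against 154 in deep PBS members. Fibroblast markers stood at 454 against 55.8 CPM and crypt secretory markers at 750 against 45.3. In BT mutant and BT WT members under 2000 UMIs fat cell markers stood at 55.8 and 18.4 CPM. PBS held the most fat cell, T cell, macrophage and enteroendocrine transcripts over all members. The part of such droplets in the differences from PBS was not tested beyond the values given for single genes.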

How the data were processed

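Single-cell transcriptomes of mouse colon were measured with 3′ droplet sequencing in 3 libraries, 1 per group. The deposited values are counts of unique molecular identifiers (UMIs) per gene and barcode, made by the authors. Cell Ranger 5.0.0 wrote them, per the file headers, and STAR and the genome build mm10 appear in the submitters' processing notes. How cells were called, which annotation was used and whether doublets were removed is not given in the sources used here. The libraries held 54943483 UMIs (BT mutant), 55436776 (BT WT) and 42003444 (PBS), and the members 9646237, 11943858 and 7312353.

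Members and gene lists were chosen with earlier results of these data known. UMIs were summed over the members of a library and scaled to CPM, and log2 ratios used a pseudocount of 10 CPM. Genes with a mean of at least 20 CPM over the 3 libraries were compared, and 2-fold or more was called. With 1 library per group no test was run; intervals are 95% exact Poisson, Clopper-Pearson or conditional binomial intervals, and a count of 0 was set to 3 UMIs for a bound. No doublet caller was run; leaving out the 5% deepest members was an alternative. Lymphocyte droplets are kept barcodes with at least 5 UMIs of the B cell genes Cd79a, Cd79b and Ms4a1 together. They also had under 2% colonocyte and under 2% goblet genes. Cd3e was not counted, so they stand for B cells and not for all lymphocytes.

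Genes were named by rule. For each comparison these were the 8 largest ratios each way among compared genes that reached 50 CPM and 50 UMIs where they were higher, with an interval that excluded 1 and a level at least that of the other barcodes of that library; from each list they were the most abundant gene and the one with the largest ratio. Genes used to choose the cells and the most abundant genes were added, and other list genes were named for their roles after their values were seen. Some genes that the rule takes are not reported here.

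The steps were tested on simulated counts for 4875 genes, with 200 changed 4-fold: 98% were called in BT mutant over BT WT, 99% in BT WT over PBS and 96.5% in BT mutant over PBS, with 0 unchanged genes called. These counts carried sampling error only, so the share says nothing of differences between animals. Promoter windows came from RefSeq and gene positions from the GRCm38 annotation. Alternatives were other limits on mitochondrial share, genes, colonocyte genes and the surface gene margin, thinning, equal weight of cells, other scalings, pseudocounts and filters. Members with at least 10000 UMIs, and those from 2000 to under 10000, were added after the depths were seen. Python 3.11.15, numpy 2.4.6, scipy 1.17.1, pandas 2.3.3 and matplotlib 3.10.9 were used.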

Additional observations from a re-analysis of the deposited data

How the results depend on the processing

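No paired analysis was possible because each group had 1 library. The share of Car1-low cells was highest in BT WT in every alternative run. In BT mutant, BT WT and PBS it was 47.6%, 90.6% and 79.5% with a mitochondrial limit of 10%, 75.4%, 96.03% and 75.7% with a 2-fold margin for the surface genes, 79.2%, 96.9% and 92.2% with at least 5% colonocyte genes, 55.2%, 91.7% and 89.02% at 10000 UMIs or more, and 95.4%, 99.8% and 94.05% from 2000 to under 10000 UMIs. It was 86.1% in BT mutant and 90.4% in PBS with no mitochondrial limit, and 90.03% in PBS with at least 1000 genes per cell.

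The counts of genes past 2-fold that moved by over 1.5 times are these. For BT mutant over BT WT, 109 were lower at the mitochondrial limit of 10%, 85 higher without the 5% deepest members, 65 higher and 50 lower with a pseudocount of 1 CPM, and 16 lower at 50 CPM or more. For BT WT over PBS, higher and lower were 538 and 374 in cells thinned to 1000 UMIs, 480 and 387 without the deepest members, 186 and 136 at 10000 UMIs or more, and 161 and 365 under median-ratio scaling. Lower were 383 with equal weight of cells, and higher were 568 with a pseudocount of 1 CPM, 192 at 50 CPM or more and 517 from 2000 to under 10000 UMIs. For BT mutant over PBS, 357 were higher and 284 lower when thinned, 256 lower with equal weight, and higher were 112 under median-ratio scaling, 290 with a pseudocount of 1 CPM, 112 at 50 CPM or more and 373 from 2000 to under 10000 UMIs.

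Against Car1-high cells, higher and lower in BT mutant were 582 and 733 when thinned, 461 and 636 with equal weight, 309 and 427 with a pseudocount of 1 CPM, 48 and 48 at 10000 UMIs or more, and 862 and 848 from 2000 to under 10000 UMIs. The last pair rests on 51 Car1-high cells. Lower in BT mutant were 130 at the 10% limit, 488 with the 2-fold margin and 513 without the deepest members, and 131 were higher at 50 CPM or more. In PBS they were 458 and 247 with equal weight, 85 and 52 without the deepest members, 122 and 48 with a pseudocount of 1 CPM and 25 and 11 at 50 CPM or more, and 53 were lower with no mitochondrial limit.

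Some values changed sign, in part on few cells. The 10% limit kept 136, 126 and 163 members in BT mutant, BT WT and PBS, and 1067, 1579 and 79 had from 2000 to under 10000 UMIs. Members under 2000 UMIs had median mitochondrial shares of 7.73%, 7.35% and 9.21%, so the 10% limit kept a larger part of them than of deeper members. With the 10% limit Mt2 stood at 0.18 in BT mutant over BT WT, and in BT mutant over PBS Ncoa7 stood at -0.11, Tnfaip3 at -0.22 and the nuclear RNA median at -0.028, which was -0.093 at 10000 UMIs or more. From 2000 to under 10000 UMIs Chgb stood at 0.25 in BT WT over PBS and 1.61 in BT mutant over PBS, and Atp12a at 0.054 in BT mutant over PBS. Gm15998 stood at -0.11 against Car1-high cells of PBS with equal weight. The cause was not tested.

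Of 677 other list medians and gene ratios, between 0 and 37 came to pass 2-fold and between 0 and 81 no longer passed it under a single alternative, the most of the second kind with the 10% limit (81) and at 10000 UMIs or more (80). The 5% alternative left 31 BT WT members, so it gave shares only, and Car1-high comparisons were run where both classes held at least 50 cells. The depth of PBS members, 30.7% of them under 1000 UMIs, limits what single cells show there, and 1 library per group leaves differences between animals unmeasured.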

Other observations

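Further gene lists passed 2-fold for part of their genes. Over all genes 3.57% were higher and 3.20% lower in BT mutant than in PBS, and 6.38% and 4.90% in BT WT than in PBS. Of 26 genes of fatty acid oxidation, 0 were higher and 1 lower in BT mutant than in PBS (median log2 ratio -0.47), and 0 were higher and 2 lower in BT WT than in PBS (-0.50). Both counts of lower genes lay near the shares over all genes. In the deep members the medians of this list were -0.14 and 0.06. Pdk4, a kinase that shuts pyruvate out of the mitochondrion, stood at 67.4 CPM in BT mutant, 22.9 in BT WT and 174 in PBS. Of 9 genes of butyrate uptake and ketone synthesis, 0 were lower in BT mutant than in PBS and 1 was lower in BT WT than in PBS. That gene was Bsg, a partner of acid transporters, with 441, 329 and 775 CPM. In members with at least 10000 UMIs it stood at 621, 551 and 786 CPM, and the list had 1 gene higher and 0 lower in BT WT than in PBS. Of 25 genes of glycolysis and low oxygen, 0 were higher and 1 lower in BT mutant than in PBS, and 1 was higher and 5 lower in BT WT than in PBS. Gapdh, a glycolytic enzyme, stood at 1434, 1013 and 2138 CPM, Ndrg1 at 188, 69.4 and 272, and Ddit4, a stress gene that holds back growth signalling, at 37.8, 54.3 and 97.4. Of 7 fat absorption genes, 0 were higher and 1 lower in BT mutant than in PBS, and 0 were higher and 3 lower in BT WT than in PBS. Scarb1, a lipoprotein receptor, stood at 8.60, 9.13 and 52.7 CPM, Sar1b at 73.8, 43.9 and 131, and Apob at 471, 438 and 519. Of 6 retinoid genes, 0 were higher and 3 lower in BT mutant than in PBS (median log2 ratio -1.10, and -0.98 in the deep members), and 2 were lower in BT WT than in PBS (-0.07, and 0.07 in the deep members). Adh1, an alcohol dehydrogenase of that list, stood at 83.3, 209.6 and 222 CPM, lowest in BT mutant. Of 11 sugar genes, 1 was higher and 4 lower in each comparison with PBS, and Txnip stood at 1749.6, 1748 and 1072 CPM.

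Genes of colon segments and of the cell surface gave single differences. Of 8 segment genes, 3 were higher and 0 lower in BT mutant than in PBS, and 3 were higher and 1 lower in BT WT than in PBS. Ly6g, of the Ly6 family, stood at 119.8 CPM in BT mutant, 225 in BT WT and 47.2 in PBS. B4galnt2, which builds a surface sugar, stood at 47.5, 46.8 and 13.4 CPM, the largest ratio over PBS among 10 genes of the glycocalyx, of which 1 was higher and 0 lower in BT mutant and 1 was higher and 1 lower in BT WT. Of 11 tip genes of the epithelium, 0 were higher in either comparison with PBS over all members, and 1 and 2 were lower in BT mutant and BT WT. Among the deep members 2 and 1 were higher and 1 and 2 lower in BT mutant and BT WT over PBS. Creb3l3, a factor of lipid metabolism, stood at 35.6, 21.1 and 112 CPM. Of 17 genes of the unfolded protein response, 16 immediate early genes, 8 heat shock genes and 3 proliferation genes compared, 0 passed 2-fold in any comparison of libraries. Of 9 genes of contact with lymphocytes and antibody, Btnl6, a butyrophilin-like protein, stood at 56.4, 69.6 and 19.97 CPM and was the single one higher in each comparison with PBS. Hoxb13, a factor of the hind gut, stood at 154, 235 and 122 CPM, and the noncoding RNA Hoxa11os at 117, 193 and 28.4, or 57.5, 122 and 25.8 among deep members, and reads from the opposite strand cannot be told apart here. Among the deep members B4galnt2, Btnl6, Gapdh and Sar1b differed from PBS by less than 2-fold, with 10 CPM added, in both colonized libraries, and Pdk4 in BT mutant.

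The most abundant transcripts outside the genes that chose the cells were Gm42418, which lies over a ribosomal RNA locus, with 68484 CPM in BT mutant, 86719 in BT WT and 30359 in PBS and Malat1 with 49526, 67852 and 69029. Gm42418 stood at 24349, 26769.6 and 23704 CPM in the deep members, where Malat1 stood at 27155, 39198 and 65847. The others among the leading 10 in at least 1 library were Phgr1, S100a6, 2200002D01Rik, Lars2, Lgals3, Actb, Fth1, Guca2a, Neat1, Selenop, Lgals4, Mt1, Dstn and Crip1. Sdc1, listed as a marker of plasma cells and also made by epithelium, stood at 163, 123 and 65.8 CPM. Cidec and Fabp4, listed as fat cell markers, stood at 15.8, 5.86 and 48.7 CPM and at 8.40, 4.19 and 50.1 CPM, highest in PBS.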
